A study of Mus musculus with 6 samples.

Results

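Wnt ligands, their Frizzled receptors and the secreted and membrane proteins that tune them were followed in epithelioid hemangioendothelioma (EHE), a malignant tumour of endothelial cells. The 49 genes were chosen by symbol: every Wnt, Fzd, Sfrp, Dkk and Rspo gene in the deposited FPKM files, with Lgr4, Lgr5, Lgr6, Lrp5, Lrp6, Axin2, Rnf43 and Znrf3. They are 49 of 55401 genes in the count table, and Frzb, which is also known as Sfrp3, does not match the pattern. The groups were 3 EHE tumours taken at the peritoneal surface and 3 livers, all of C57BL6 mice, and the tumours came from a genetically engineered model. The engineered alleles, any Cre driver, the age and sex of the animals, the genotype of the liver donors and whether each sample came from its own animal were not given in the sources used here. P-values therefore reflect no more than the spread among these 6 samples, and that spread may be technical. Tumour state and tissue differ together in the comparison and cannot be told apart.

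Wnt proteins are secreted lipid-modified signals that bind a Frizzled receptor, and in the beta-catenin branch they also engage the co-receptor LRP5 or LRP6. Beta-catenin then escapes degradation and acts with TCF factors on target genes such as Axin2, while other branches steer cell polarity and movement. Secreted frizzled-related proteins bind Wnts, and DKK1 and DKK2 bind the LRP co-receptors. The ubiquitin ligases RNF43 and ZNRF3 clear Frizzled from the cell surface, and R-spondins remove these ligases through LGR4, LGR5 and LGR6. In liver, endothelial cells of the central vein release Wnt2, Wnt9b and R-spondin 3, which keep the neighbouring hepatocytes in a pericentral state.

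Libraries held 38068941 to 40277346 counts in tumours and 33881392 to 39600125 in livers. The summed vascular endothelial markers fixed as a list (10 genes) were 2178 to 4034 CPM in tumours and 159 to 200.2 CPM in livers, and the summed hepatocyte markers (10 genes) were 7.06 to 14.4 CPM in tumours and 160558 to 234704 CPM in livers, so each tissue carried the markers of its label. CPM here is the count of a gene scaled to library size after TMM, a factor per library that centres the bulk of genes. The factors were 1.52 to 1.62 in tumours and 0.612 to 0.682 in livers, so the same count gives a higher CPM in a liver. Tumour 2 stood apart with 12868 CPM of skeletal muscle markers, against 1680.1 in tumour 1 and 3003 in tumour 3, and with the lowest endothelial sum. Liver 2 had 33274 genes with a count, and livers 1 and 3 had 19767 and 19001. A change between tissues in bulk RNA cannot tell fewer cells of a type from less RNA per cell.

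Promoter windows are shown for 5 genes, the ligands Wnt7a, Wnt9a and Wnt11, which were raised in tumours, and Lgr4 and Rnf43 of the R-spondin arm, which were lower. Each is 250 bases before to 50 after a RefSeq start on GRCm38.p6, read on the gene's own strand. Capitals mark the letters CTTTGA, the core that TCF factors read, or GGAATG, the core that TEAD factors read, on either strand.
Wnt7a, chr6:91411304-91411603, minus strand: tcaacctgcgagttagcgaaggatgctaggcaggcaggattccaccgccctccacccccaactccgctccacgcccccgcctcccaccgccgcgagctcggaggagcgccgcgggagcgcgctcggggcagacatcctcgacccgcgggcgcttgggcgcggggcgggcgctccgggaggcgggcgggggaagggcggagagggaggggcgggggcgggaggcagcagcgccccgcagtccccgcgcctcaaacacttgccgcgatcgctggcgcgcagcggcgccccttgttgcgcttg
Wnt9a, chr11:59306680-59306979, plus strand: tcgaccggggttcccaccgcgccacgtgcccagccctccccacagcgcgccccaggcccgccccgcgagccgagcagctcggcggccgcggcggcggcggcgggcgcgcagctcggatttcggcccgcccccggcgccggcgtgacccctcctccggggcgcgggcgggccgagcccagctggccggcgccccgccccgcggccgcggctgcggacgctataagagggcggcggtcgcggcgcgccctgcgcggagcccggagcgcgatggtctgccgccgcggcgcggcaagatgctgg
Wnt11, chr7:98834862-98835161, plus strand: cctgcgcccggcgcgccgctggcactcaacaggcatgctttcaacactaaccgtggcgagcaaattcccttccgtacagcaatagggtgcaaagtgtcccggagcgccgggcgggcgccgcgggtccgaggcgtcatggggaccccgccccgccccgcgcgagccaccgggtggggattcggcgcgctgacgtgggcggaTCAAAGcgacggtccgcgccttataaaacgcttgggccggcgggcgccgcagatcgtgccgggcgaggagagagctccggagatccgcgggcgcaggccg
Lgr4, chr2:109917397-109917696, plus strand: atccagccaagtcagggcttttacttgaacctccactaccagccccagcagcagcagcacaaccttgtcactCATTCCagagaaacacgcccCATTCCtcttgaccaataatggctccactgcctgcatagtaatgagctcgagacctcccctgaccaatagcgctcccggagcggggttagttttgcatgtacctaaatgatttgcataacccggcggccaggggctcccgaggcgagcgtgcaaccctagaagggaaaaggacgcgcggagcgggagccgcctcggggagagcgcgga
Rnf43, chr11:87662837-87663136, plus strand: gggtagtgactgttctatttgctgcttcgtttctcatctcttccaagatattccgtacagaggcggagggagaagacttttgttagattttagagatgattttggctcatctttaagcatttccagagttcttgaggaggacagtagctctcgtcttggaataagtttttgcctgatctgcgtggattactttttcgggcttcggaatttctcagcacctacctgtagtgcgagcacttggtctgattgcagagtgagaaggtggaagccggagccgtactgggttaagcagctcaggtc
The TCF letters occurred in the printed window of Wnt11 and the TEAD letters at 2 places in that of Lgr4. Wnt11 and Rnf43 each have another window, not printed, with neither set of letters. Of 35 such windows found for 31 of the 49 genes, 4 held the TCF letters (11.4%) and 2 the TEAD letters (5.71%), against 5257 and 4817 of 32851 windows of all genes. The member windows had a median of 67.7% G and C and 26 CpG pairs, against 52.7% and 7 over all windows. Windows of members that were higher in tumours had a median of 73.7% (12 windows of 11 genes) and those of members that were lower 56.7% (8 windows of 5 genes). Among the lower genes, Wnt5b (53.0% to 78.0%) and Rnf43 (44.3% and 46.7%) had more than 1 window. Fzd4, Fzd5 and Lgr4 had 72.7%, 75.7% and 58.3%, so the lower median leans on the repeated windows. These are matches of letters, which describe the windows and no binding.

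Of the 49 genes, 35 passed the filter on low counts and were tested, and at an edgeR adjusted p under 0.05 tumours were higher for 18 and lower for 9, while 8 did not pass. Over all 17387 genes tested, 29.5% were higher, 28.7% were lower and 58.2% were called in either direction. The groups did not overlap for 28 of the 35 genes (19 with tumours above and 9 below), against 68.2% of all genes tested. The median log2 fold change was 1.89 for the 35 genes and 0.10 for all genes tested. A gene can pass the filter through its higher tissue alone, so these counts describe the 35 genes and not the 49. The calls of Fzd4, Fzd5, Fzd8 and Znrf3 as lower depend on the scaling between libraries, as given beside each.

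**Figure D1:**
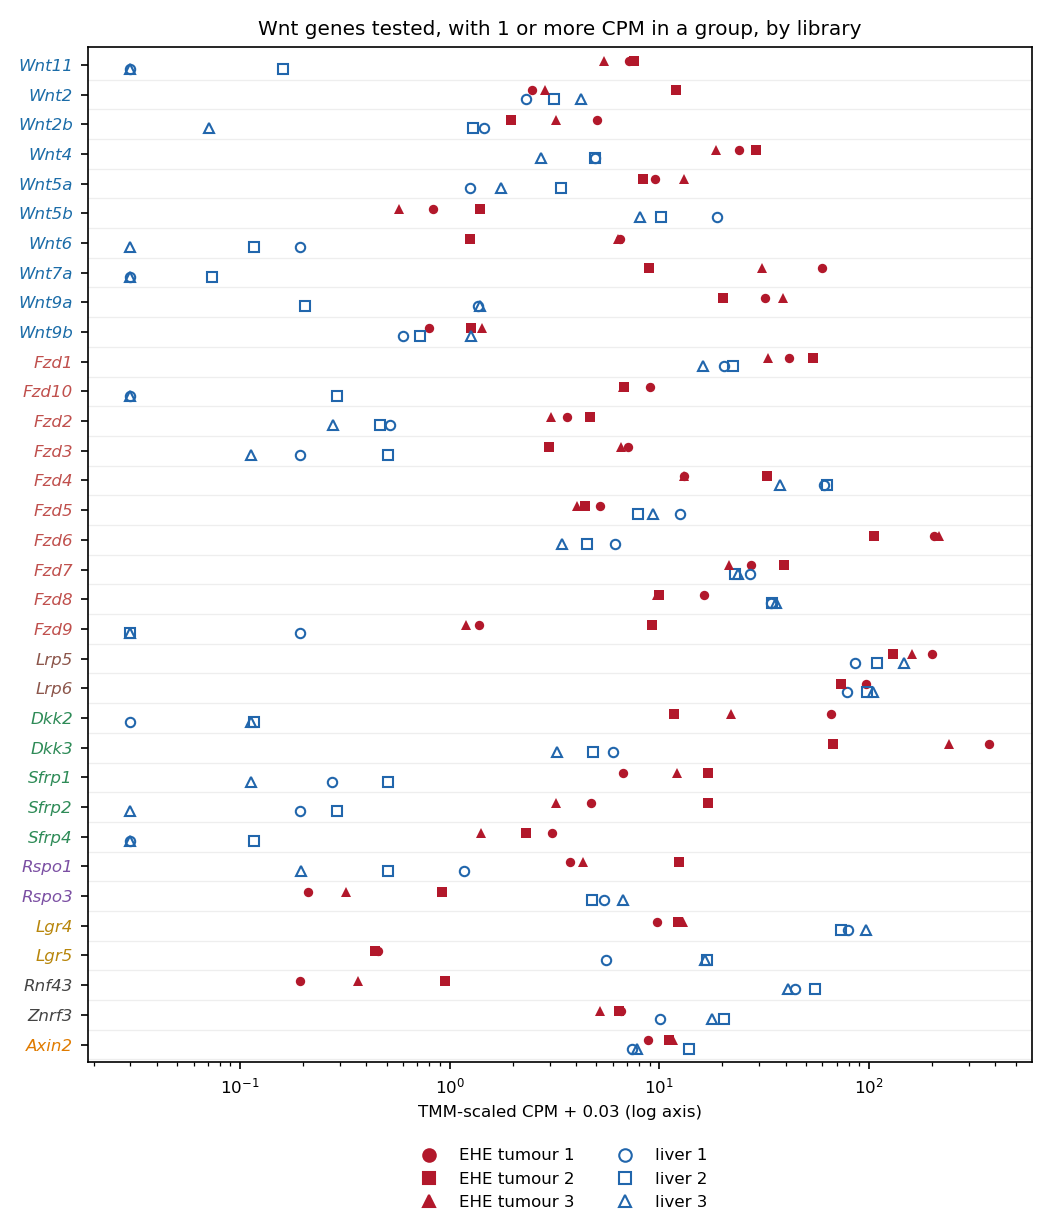
TMM-scaled CPM plus 0.03 on a log axis for the 34 Wnt genes that were tested and reached 1 CPM in a group. Filled red symbols are the 3 EHE tumours and open blue symbols the 3 livers, with 1 symbol shape per library number, and the colour of a gene name marks its role. For Wnt7a, Fzd6, Dkk2 and Dkk3 the tumours lie far to the right of the livers. For Rnf43, Lgr4, Lgr5, Rspo3 and Wnt5b the livers lie to the right of the tumours.

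Among the 19 ligands, 6 rose in tumours (Wnt4, Wnt5a, Wnt6, Wnt7a, Wnt9a and Wnt11) and Wnt5b fell. Another 3 did not pass and 9 were too low to test. Of the 10 tested, 60% were higher and 10% lower, against 29.5% and 28.7% of all genes tested. Wnt6, Wnt7a and Wnt11 passed the filter through the tumours. Wnt7a (ENSMUSG00000030093, chromosome 6, 91363981 to 91411363, GRCm38), a ligand that acts on endothelium in the brain, had 59.8, 8.90 and 30.9 CPM in tumours 1 to 3, against 0, 0.0433 and 0 CPM in livers 1 to 3. The liver value is 1 count in liver 2, and the tumour libraries held 3654, 521 and 1924 counts. The ratio of tumours to livers was 2412 (95% exact binomial interval 433 to 95286, edgeR adjusted p = 0.000294), an interval that covers counting error only. Tumour 1 had the most Wnt7a and tumour 2 the least, and the lowest tumour was far above every liver. Wnt9a, which takes part in joint formation, had 31.8, 20.2 and 39.0 CPM in tumours, against 1.34, 0.173 and 1.36 CPM in livers. All 3 tumours lay above all 3 livers, and the log2 fold change was 4.97 (SE 0.66, edgeR adjusted p = 0.000733).

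Wnt4, a ligand of kidney and female tract development, had 24.1, 28.9 and 18.7 CPM in tumours, against 4.91, 4.90 and 2.68 CPM in livers. No tumour overlapped a liver, and Wnt4 rose by 2.52 on the log2 scale (SE 0.31, edgeR adjusted p = 0.000514). Wnt11, known for driving cell movements in vertebrate embryos, had 7.12, 7.54 and 5.39 CPM in tumours, against 0, 0.130 and 0 CPM in livers. All 3 liver counts lay in liver 2, and the tumour to liver ratio was 159.8 (95% exact binomial interval 54.5 to 776, edgeR adjusted p = 0.000564). Wnt6 had 6.45, 1.21 and 6.33 CPM in tumours, against 0.162, 0.0867 and 0 CPM in livers, and rose by 5.76 (SE 1.06, edgeR adjusted p = 0.00311; 6.71 without liver 1). Tumour 2 was low for it, as for Wnt7a. Wnt5a, the main ligand of the polarity branch, had 9.51, 8.32 and 13.1 CPM in tumours, against 1.22, 3.38 and 1.73 CPM in livers, and rose by 2.29 (SE 0.44, edgeR adjusted p = 0.00389).

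Wnt5b went the other way from its close relative Wnt5a. It had 0.802, 1.37 and 0.545 CPM in tumours, against 18.9, 10.1 and 8.05 CPM in livers, with a log2 fold change at -3.77 (SE 0.51, edgeR adjusted p = 0.000788). No tumour came near a liver, and liver 1 had the most. The central vein ligands Wnt2 and Wnt9b did not pass, although with library totals alone both were called higher (log2 fold changes 2.12 and 1.74, edgeR adjusted p = 0.0255 and 0.0204). Wnt2 had 2.44, 11.9 and 2.81 CPM in tumours, against 2.27, 3.12 and 4.21 CPM in livers (log2 fold change 0.84, SE 0.67, edgeR adjusted p = 0.316). The groups overlapped, tumour 2 alone lay above the livers, and without it the fitted value was -0.28. Wnt9b had 0.770, 1.23 and 1.40 CPM in tumours, against 0.568, 0.694 and 1.24 CPM in livers (log2 fold change 0.44, SE 0.52, edgeR adjusted p = 0.502). Wnt2b, a relative of Wnt2, had 4.99, 1.93 and 3.18 CPM in tumours, against 1.42, 1.26 and 0.0413 CPM in livers. The tumours lay above the livers for Wnt2b, but the spread among livers was wide and the call was not made (log2 fold change 1.89, SE 0.95, edgeR adjusted p = 0.127). Wnt2b was called higher with no low-count filter (2.04, edgeR adjusted p = 0.00352) and with library totals alone (3.14, adjusted p = 0.0235).

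The 9 ligands that were not tested held few counts, with Wnt7b as the exception. Wnt7b, the closest relative of Wnt7a, had 385, 2 and 43 counts in tumours 1 to 3, against 4, 5 and 0 in livers 1 to 3, so that tumour 2 lay within the livers. Wnt10a had 26, 2 and 8 counts in tumours, against 2, 3 and 0 in livers. Wnt1, Wnt10b and Wnt16 had 2 to 22 counts in each tumour, and their liver counts (2, 6 and 6) all lay in liver 2. Wnt3 had 13 counts and Wnt8b 4 counts, all in liver 2, Wnt8a had 1 count in tumour 3, and Wnt3a had 0 counts in all 6 libraries. A floor of 3 counts corresponds to 0.0481 to 0.0513 CPM per tumour library and 0.122 to 0.130 CPM per liver library, so an absence below these levels was not detectable at this depth. Of values from 1 to 10 counts 55.0% to 70.7% were even numbers, so some fragments may have been counted once for each mate, and such floors and intervals are then too narrow.

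Of the 19 ligand genes 8 lie in 4 neighbouring pairs. Wnt3a, with 0 counts in every library, lies 16175 bases from Wnt9a on chromosome 11, and Wnt10a lies 6193 bases from Wnt6 on chromosome 1. The pair of Wnt9b and Wnt3 on chromosome 11 is 24328 bases apart, and in tumours it had 47, 72 and 87 counts for Wnt9b and 0 for Wnt3. Wnt10b and Wnt1 on chromosome 15, with 11706 bases between them, were both at 14 counts or fewer in each tumour.

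Levels of different genes were compared with the deposited FPKM, which divides by gene length, as shares of the summed FPKM of the family within a library. Such shares do not depend on the scaling between libraries. Wnt5b made up 0.731%, 1.99% and 0.641% of summed ligand FPKM in tumours 1 to 3, against 71.0%, 51.5% and 51.1% in livers 1 to 3. Wnt2 was second in livers 2 and 3 and Wnt4 in liver 1, with Wnt2 at 8.01%, 15.7% and 27.4% of the liver pools. In tumours Wnt7a had 37.6%, 9.04% and 25.8% and Wnt9a 19.4%, 19.5% and 31.4%, while Wnt7a was listed at 0 FPKM in every liver and Wnt9a had 3.26%, 0.594% and 5.43% there. Tumours 1 and 3 were led by Wnt7a and Wnt9a, in that order in tumour 1 and the other way round in tumour 3. Tumour 2 had no such leader, with Wnt4 (21.9%), Wnt9a, Wnt11 (18.3%) and Wnt2 (17.8%) at similar shares. Summed ligand FPKM was 67.1, 40.6 and 52.9 in tumours, against 7.06, 4.999 and 4.06 in livers. Unlike the shares, such sums depend on the scaling between libraries. In TMM-scaled CPM, which does not divide by length, the ligands summed to 155, 92.2 and 122 in tumours, against 31.0, 25.6 and 19.3 in livers.

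**Figure D2:**
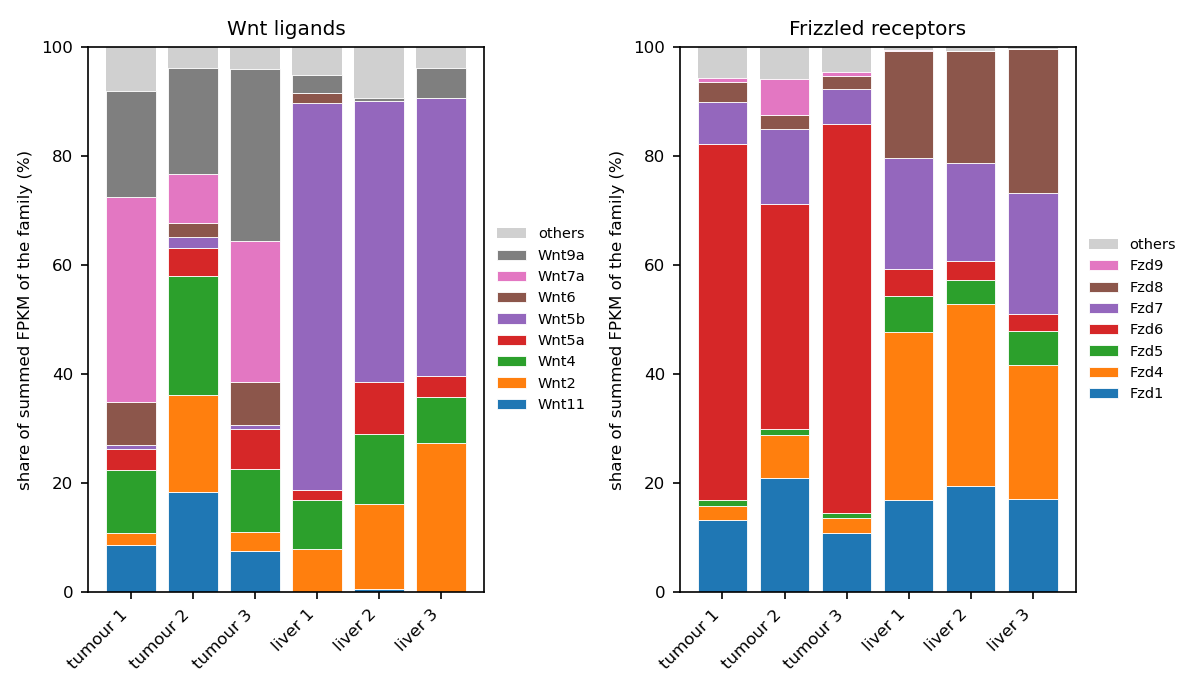
Share of the summed FPKM of the 19 Wnt ligands (left) and of the 10 Frizzled receptors (right) in each library, tumours before livers, with genes that never reach 5% pooled as others. Wnt5b fills 51.1% to 71.0% of the ligand bar in livers and 0.641% to 1.99% in tumours, and Fzd6 fills 41.3% to 71.4% of the receptor bar in tumours and 3.18% to 5.09% in livers.

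All 10 Frizzled receptors were tested. Of these 6 rose (Fzd1, Fzd2, Fzd3, Fzd6, Fzd9 and Fzd10), 3 fell (Fzd4, Fzd5 and Fzd8) and Fzd7 did not pass. That is 60% higher and 30% lower, against 29.5% and 28.7% of all genes tested. Fzd9 and Fzd10 had 4 and 6 counts in all livers together and passed the filter through the tumours. Fzd6 (ENSMUSG00000022297, chromosome 15, 39006034 to 39038188, GRCm38), a receptor that orients hair follicles in mice, had 205, 106 and 216 CPM in tumours, against 6.08, 4.46 and 3.38 CPM in livers. Its log2 fold change was 5.24 (SE 0.40, edgeR adjusted p = 5.98e-05), and even tumour 2 was far above the livers. A long noncoding gene on the other strand, Gm26704, shares 152 exon bases with Fzd6 and had 33 to 120 counts in tumours, against 6184 to 13440 counts of Fzd6. Fzd10 had 9.04, 6.75 and 6.67 CPM in tumours, against 0, 0.260 and 0 CPM in livers, and rose by 6.42 (SE 1.03, edgeR adjusted p = 0.00169). All 6 liver counts of Fzd10 lay in liver 2, and without that library the fitted rise was 11.44, so its size rests on liver 2.

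Fzd3, a receptor that guides growing axons, had 7.06, 2.96 and 6.54 CPM in tumours, against 0.162, 0.477 and 0.0825 CPM in livers, and rose by 4.51 (SE 0.72, edgeR adjusted p = 0.00164; 5.48 without liver 2). Fzd2 had 3.59, 4.61 and 3.01 CPM in tumours, against 0.487, 0.433 and 0.248 CPM in livers, and rose by 3.25 (SE 0.46, edgeR adjusted p = 0.000894). Fzd1, the relative of Fzd2 and Fzd7, had 41.5, 53.9 and 33.1 CPM in tumours, against 20.3, 22.4 and 16.2 CPM in livers, and rose by 1.13 (SE 0.23, edgeR adjusted p = 0.00495). The tumours were above the livers for each of these. Fzd9 had 1.34, 9.16 and 1.17 CPM in tumours, against 0.162, 0 and 0 CPM in livers, and rose by 6.07 (SE 1.44, edgeR adjusted p = 0.00977). Its rise was 4.44 without tumour 2 and 10.48 without liver 1, which held all 4 liver counts.

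Fzd4, the receptor through which Norrin acts on retinal vessels, had 13.1, 32.7 and 13.0 CPM in tumours, against 61.3, 62.9 and 37.4 CPM in livers. Tumour 2 was close to liver 3, and the fall of 1.46 (log2 fold change -1.46, SE 0.42, edgeR adjusted p = 0.0206) did not pass without tumour 1 (-1.23, adjusted p = 0.0626), tumour 3 (-1.22, 0.0635), liver 1 (-1.33, 0.0705) or liver 2 (-1.32, 0.0614), in edgeR fits. With library totals alone it was -0.19 (edgeR adjusted p = 0.69). Summed markers of liver sinusoidal endothelium (8 genes, 6 of them lower) had 116, 272 and 130.3 CPM in tumours, highest in tumour 2, against 306, 334 and 366 CPM in livers. Much of the tumour sum came from Lyve1 and Fcgr2b. Lyve1 was called higher in tumours (35.8, 109.5 and 57.2 CPM), and Fcgr2b did not pass (49.5, 117.1 and 45.9 CPM in tumours). The part of these markers in the Fzd4 result was not tested. Fzd8 had 16.4, 9.95 and 9.73 CPM in tumours, against 34.1, 34.3 and 36.0 CPM in livers, with a log2 fold change at -1.53 (SE 0.24, edgeR adjusted p = 0.00147), and -0.26 with library totals alone (adjusted p = 0.334). Fzd5, a receptor of gut epithelium, had 5.19, 4.38 and 4.03 CPM in tumours, against 12.5, 7.89 and 9.29 CPM in livers. Its log2 fold change was -1.13 (SE 0.28, edgeR adjusted p = 0.0107), -0.90 without liver 1 (adjusted p = 0.0509), and it turned to 0.16 with library totals alone (adjusted p = 0.62). The annotation places a gene, Gm38058, over 17.8% of the exon bases of Fzd5, and it had 0 counts in every library. Fzd7 had 27.3, 39.1 and 21.5 CPM in tumours, against 27.2, 22.8 and 23.7 CPM in livers (log2 fold change 0.26, SE 0.24, edgeR adjusted p = 0.398), with the groups overlapping, and was called higher with library totals alone (1.53, edgeR adjusted p = 0.000978).

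As shares of summed Frizzled FPKM, Fzd6 had 65.2%, 41.3% and 71.4% in tumours, against 5.09%, 3.61% and 3.18% in livers. Fzd4 had 2.58%, 7.83% and 2.65% in tumours, against 30.9%, 33.4% and 24.4% in livers, and Fzd8 had 3.62%, 2.66% and 2.23%, against 19.6%, 20.6% and 26.4%. The order in tumours was Fzd6, then Fzd1, then Fzd7 in every library, while in livers Fzd4, Fzd7, Fzd8 and Fzd1 each held 16.9% to 33.4%. Fzd1 kept a like share in both tissues, 13.3%, 21.0% and 10.96% in tumours and 16.9%, 19.4% and 17.2% in livers. Summed Frizzled FPKM was 101, 80.1 and 101 in tumours, against 16.6, 15.2 and 13.0 in livers, so a low share need not be a low level. These sums also depend on the scaling, and in TMM-scaled CPM they were 329, 269 and 314 in tumours, against 162, 156 and 126 in livers. The FPKM of Fzd4 overlapped between the groups, with 2.62, 6.27 and 2.69 in tumours, against 5.12, 5.08 and 3.17 in livers. Fzd8 overlapped as well, with 3.67, 2.13 and 2.26 FPKM in tumours, against 3.26, 3.13 and 3.43 FPKM in livers.

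The co-receptors Lrp5 and Lrp6 were abundant in both tissues and did not pass. Lrp5 had 200.2, 129.6 and 161 CPM in tumours, against 85.9, 109.7 and 147 CPM in livers (log2 fold change 0.52, SE 0.27, edgeR adjusted p = 0.136). Tumour 2 lay below liver 3, so the groups overlapped. Lrp6 had 96.4, 73.4 and 74.1 CPM in tumours, against 78.3, 98.2 and 105 CPM in livers (log2 fold change -0.20, SE 0.20, edgeR adjusted p = 0.403), and its sign turned with library totals alone (1.07, adjusted p = 0.00217). With those totals Lrp5 was called higher (1.81, edgeR adjusted p = 0.000824), and also with TMM and no low-count filter (0.65, edgeR adjusted p = 0.0489).

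All 5 secreted modulators that were tested rose, each with every tumour above every liver, against 29.5% and 35.1% of all genes tested. Dkk2, Sfrp1, Sfrp2 and Sfrp4 had 4, 19, 10 and 2 counts in all livers together. These genes passed the filter through the tumours, so a fall could hardly have been called. Dkk3 (ENSMUSG00000030772, chromosome 7, 112116017 to 112159057, GRCm38), a divergent member of its family whose part in Wnt signalling is less clear, had 374, 67.4 and 242 CPM in tumours, against 5.96, 4.81 and 3.22 CPM in livers. It was the most abundant of the 49 genes by FPKM in tumours 1 and 3, at 148 and 101 FPKM, with 25.7 FPKM in tumour 2, and its log2 fold change was 5.61 (SE 0.69, edgeR adjusted p = 0.000518). Dkk2, which binds LRP5 and LRP6, had 66.1, 11.8 and 22.0 CPM in tumours, against 0, 0.0867 and 0.0825 CPM in livers. The livers held 4 counts of Dkk2 in all, and the rise was 9.15 on the log2 scale (SE 1.04, edgeR adjusted p = 0.000356; 8.17 without tumour 1). Dkk1 had 0 counts in all tumours and 7 in livers, all in liver 2, and Dkk4 had 0 counts in all 6 libraries.

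Of the secreted frizzled-related proteins, Sfrp1 had 6.65, 17.1 and 12.1 CPM in tumours, against 0.243, 0.477 and 0.0825 CPM in livers, and rose by 5.47 (SE 0.67, edgeR adjusted p = 0.000478; 6.18 without liver 2). Sfrp2, which fibroblasts commonly make, had 4.72, 17.1 and 3.18 CPM in tumours, against 0.162, 0.260 and 0 CPM in livers. It rose by 5.87 (SE 1.09, edgeR adjusted p = 0.00323), 4.80 without tumour 2 and 6.64 without liver 2. Sfrp4 had 3.05, 2.27 and 1.38 CPM in tumours, against 0, 0.0867 and 0 CPM in livers, a tumour to liver ratio of 80.1 (95% exact binomial interval 22.0 to 664, counting error only, edgeR adjusted p = 0.00189) that rests on 2 counts in liver 2. Sfrp5 was not tested, and had 9, 169 and 4 counts in tumours, against 0, 6 and 2 in livers. Dkk2 and Dkk3 were lowest in tumour 2 and the Sfrp genes other than Sfrp4 were highest there. Genes on the other strand share exon bases with Sfrp2 (16.1% of its exon bases), Rspo3 (13.1%), Wnt11 (8.80%), Wnt5a, Wnt7b and Axin2, so their reads cannot be told apart without strand. These partner genes had 13 counts or fewer in each library.

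Of the ligases and R-spondin receptors 4 of 5 were lower in tumours, against 28.7% of all genes tested. Of the R-spondins tested 1 was higher and 1 lower, against 29.5% and 28.7% of all genes tested. Rnf43 (ENSMUSG00000034177, chromosome 11, 87662722 to 87735539, GRCm38) had 0.164, 0.923 and 0.337 CPM in tumours, against 44.2, 55.0 and 41.1 CPM in livers. Its log2 fold change was -6.62 (SE 0.62, edgeR adjusted p = 0.000148), and -7.51 without tumour 2. The other ligase, Znrf3, had 6.57, 6.39 and 5.18 CPM in tumours, against 10.1, 20.4 and 17.8 CPM in livers, with a log2 fold change at -1.41 (SE 0.30, edgeR adjusted p = 0.00626) that fell short with library totals alone (-0.14, adjusted p = 0.702). The FPKM of Znrf3 overlapped between the groups, with 1.55, 1.44 and 1.29 in tumours, against 0.957, 1.85 and 1.74 in livers.

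Lgr4 (ENSMUSG00000050199), the broadly expressed R-spondin receptor, had 9.76, 12.3 and 13.0 CPM in tumours, against 79.0, 73.2 and 96.4 CPM in livers, with a log2 fold change at -2.83 (SE 0.19, edgeR adjusted p = 3.83e-05). Lgr5, a beta-catenin target that marks stem cells of the gut and pericentral hepatocytes, had 0.426, 0.410 and 0.417 CPM in tumours, against 5.52, 16.9 and 16.6 CPM in livers, with a log2 fold change at -4.95 (SE 0.52, edgeR adjusted p = 0.00024). The tumours were nearly alike for each receptor, and liver 1 was the lowest liver for Lgr5. Lgr6 had 0.589, 0.308 and 0.353 CPM in tumours, against 0.243, 0.997 and 0 CPM in livers (log2 fold change 0.02, SE 1.14, edgeR adjusted p = 0.99), with overlapping groups. Rspo3, the R-spondin of the central vein, had 0.180, 0.889 and 0.289 CPM in tumours, against 5.39, 4.73 and 6.69 CPM in livers. Its log2 fold change was -3.62 (SE 0.66, edgeR adjusted p = 0.00293), and -4.55 without tumour 2. Rspo1 had 3.70, 12.4 and 4.28 CPM in tumours, against 1.14, 0.477 and 0.165 CPM in livers, and rose by 3.51 (SE 0.81, edgeR adjusted p = 0.0085; 2.75 without tumour 2 and 4.42 without liver 1). Summed mesothelial markers (8 genes) had the same order among livers and were highest in tumour 2 as well, at 89.3, 266 and 82.7 CPM in tumours, against 34.8, 14.9 and 4.004 CPM in livers, and their part in the Rspo1 result was not tested. Rspo2 and Rspo4 had 6 counts or fewer in every library.

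Axin2 (ENSMUSG00000000142, chromosome 11, 108920349 to 108950783, GRCm38), the most general target of beta-catenin signalling and a part of the complex that degrades beta-catenin, did not pass. It had 8.76, 11.1 and 11.6 CPM in tumours, against 7.38, 13.9 and 7.80 CPM in livers (log2 fold change 0.12, SE 0.31, edgeR adjusted p = 0.767), and liver 2 was the highest library. Its sign depended on liver 1, without which it was -0.022, and with library totals alone Axin2 was called higher (1.38, edgeR adjusted p = 0.00909).

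**Figure D3:**
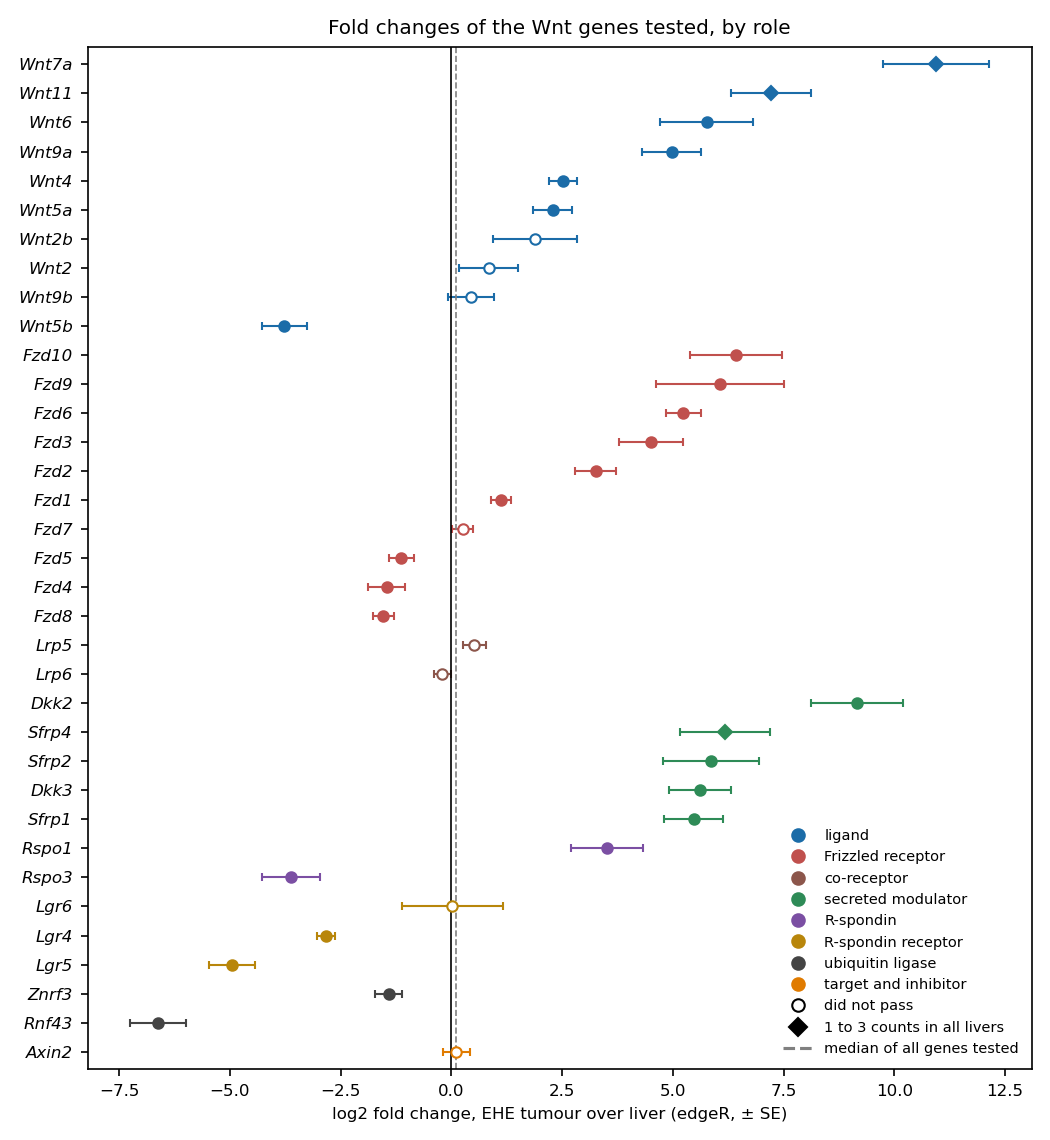
Log2 fold change of EHE tumours over livers with its standard error for the 35 Wnt genes tested, grouped by role, from edgeR with TMM scaling. Filled symbols passed an adjusted p under 0.05, diamonds mark 3 genes with 1 to 3 counts in all livers together, whose fitted size depends on the fit's prior count, and the dashed line is the median of all genes tested, 0.10. Modulators lie to the right, and Lgr4, Lgr5, Rnf43 and Znrf3 to the left.

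The tumours differed among themselves in these genes. Of 30 tested Wnt genes with a mean of 1 CPM or more in tumours, 8 had a highest tumour over 3 times the lowest (26.7%), and 14.8% of the 13923 tested genes at that level did. Wnt7b and Sfrp5, at that level but not tested, also did. Wnt7b, Wnt6, Wnt7a, Dkk3 and Dkk2 were lowest in tumour 2, with a highest to lowest ratio of 184 for Wnt7b, 6.72 for Wnt7a, 5.63 for Dkk2, 5.55 for Dkk3 and 5.32 for Wnt6. Wnt2, Fzd9, Sfrp2, Sfrp5 and Rspo1 were highest in tumour 2, with ratios of 4.90, 7.83, 5.37, 45.03 and 3.34. Axin2, Lgr4, Lrp6, Fzd5 and Znrf3 varied least, by 1.27 to 1.33 times. Summed markers of vascular endothelium (4034, 2178 and 3657 CPM in tumours 1 to 3) were lowest in tumour 2, as were 8 of the 10 genes. Of the 8 fibroblast markers 7 were highest in tumour 2, with a sum of 572, 818 and 523 CPM, while Thy1, the exception, had 1183, 358 and 1144 CPM. Summed markers of skeletal muscle, mesothelium, adipocytes (195, 527 and 63.3 CPM) and macrophages (529, 1408 and 296 CPM) were highest there. Their part in these differences was not tested.

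Set against the endothelial markers of the same library, Wnt7a had 14.8, 4.09 and 8.44 CPM per 1000 CPM of endothelial markers in tumours 1 to 3, so tumour 2 stayed the lowest. Dkk2 had 16.4, 5.40 and 6.01, Dkk3 92.7, 30.9 and 66.1, and Wnt6 1.60, 0.557 and 1.73 on that scale, and tumour 2 was the lowest for each. Fzd6 came out nearly even on it, with 50.8, 48.5 and 58.9, and so did Wnt9a with 7.89, 9.27 and 10.7. Which cells made these transcripts cannot be read from bulk RNA.

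**Figure D4:**
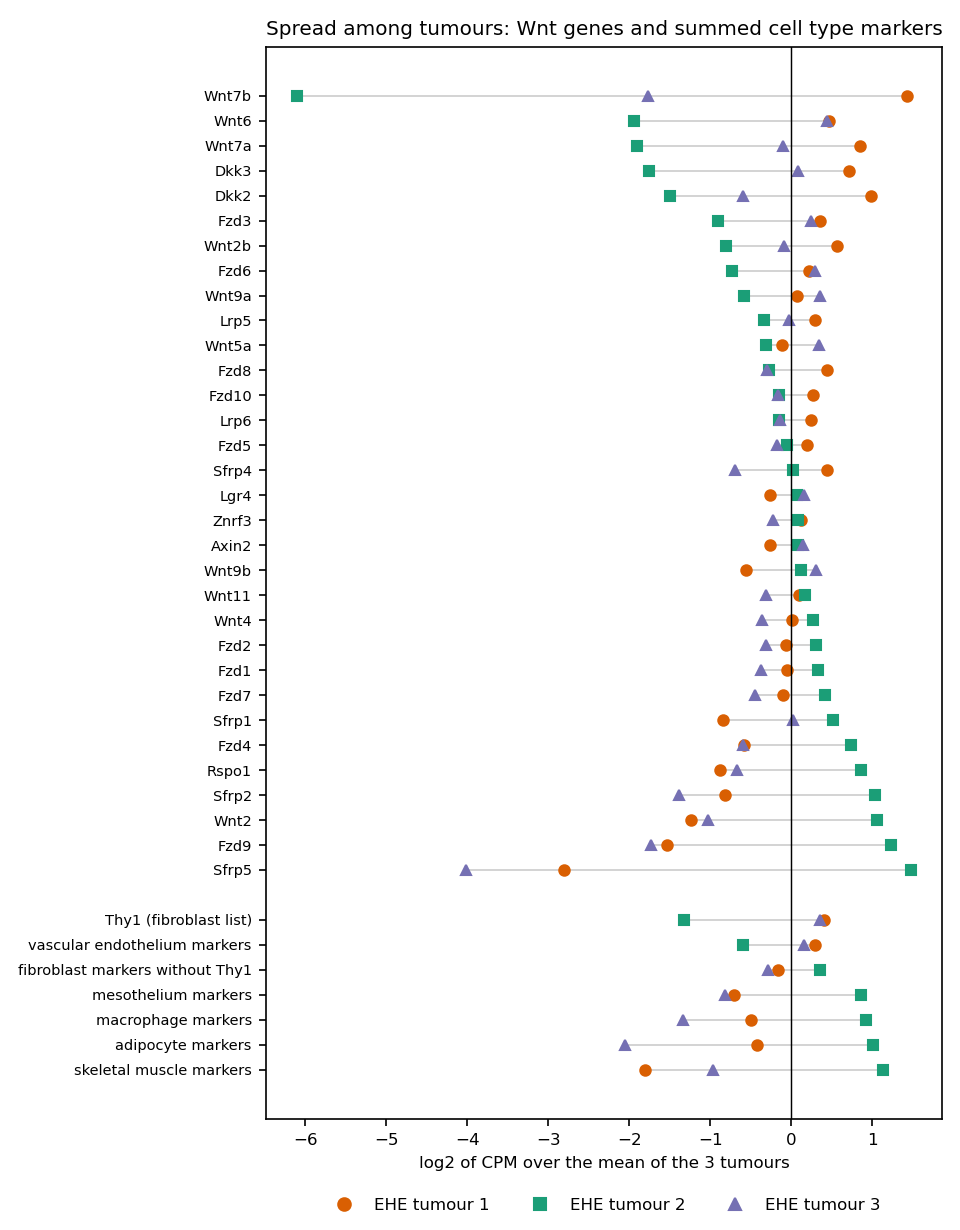
Log2 of CPM over the mean of the 3 tumours for the 32 Wnt genes with a mean of 1 CPM or more in tumours, ordered by tumour 2, and below them for the summed markers of 6 cell types, with Thy1 drawn apart from the other fibroblast markers. Each symbol is 1 tumour, and Wnt7b, Wnt6, Wnt7a, Dkk3 and Dkk2 are low in tumour 2 (squares) while Wnt2, Fzd9 and Sfrp5 are high there, as are skeletal muscle and adipocyte markers.

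Other genes of the pathway were read from a list of 66, of which 62 were tested, 27 were higher and 7 lower in tumours and 28 did not pass, with a median log2 fold change of 0.92. That is 43.5% higher and 11.3% lower, against 29.5% and 28.7% of all genes tested. Among 21 tested genes of secretion and the cell surface 10 were higher and 3 lower. Among the other 41, mostly intracellular but with membrane proteins such as Vangl2 and Celsr1, 17 were higher and 4 lower. The largest rises with 1 CPM or more were in Ndp (Norrin, the ligand of Fzd4), Cthrc1 (a secreted partner of the polarity branch), Vangl2 and Ptk7 (membrane proteins of planar polarity). Ndp had 11.8, 1.01 and 5.68 CPM in tumours, against 0, 0.0433 and 0 CPM in livers, a ratio of 448 (95% exact binomial interval 80.2 to 17698, counting error only, edgeR adjusted p = 0.00188). Ptk7 had 51.1, 31.8 and 35.1 CPM in tumours, against 0.973, 1.60 and 0.413 CPM in livers. Vangl2 rose by 5.46 (SE 1.06) and Cthrc1 by 5.55 (SE 0.88) on the log2 scale, with edgeR adjusted p of 0.00399 and 0.00157. The largest falls were in Notum, a secreted enzyme that inactivates Wnts, with 0.115, 0.120 and 0.481 CPM in tumours, against 45.02, 37.2 and 47.5 CPM in livers, and in Gpc4, Tle2 and Tspan12 (log2 fold changes -2.97, -1.89 and -1.31). With library totals alone 51 of the 62 were higher and 2 lower, so the counts in both directions depend on the scaling. Not every fall named here kept its call with those totals, and the FPKM of Tle2 and Tspan12 overlapped between the groups.

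Genes that beta-catenin is known to drive in liver, many of them pericentral hepatocyte enzymes, were lower in tumours for 24 of 29 tested (30 listed; 82.8%, against 28.7% of all genes tested), with 2 higher and a median of -4.95. The list includes Lgr5, Rnf43, Znrf3 and Axin2, and it shares Notum, Nkd1 and Tcf7 with the list of 66. Rgn and Cyp1a2 had 1 and 2 counts in all tumours together, with liver to tumour ratios of 409148 (95% exact binomial interval 73433 to 16160596) and 68974 (19093 to 569555). Cyp2c50, a member of a family whose paralogs can share reads, and Cyp7a1, the rate-limiting enzyme of bile acid synthesis, had 0 counts in all tumours, and with a floor of 3 counts per library they were at least 18325-fold and 6369-fold lower. Bounds and ratios cover counting error only. All 10 hepatocyte markers also fell, and their part in this result was not tested. The 2 genes that rose were Myc, a growth regulator with many inputs, with 57.2, 27.0 and 33.4 CPM in tumours, against 6.41, 7.72 and 5.45 CPM in livers, and Nkd1, a feedback inhibitor of Wnt signalling, with 21.5, 21.2 and 28.9 CPM, against 6.41, 12.6 and 11.4 CPM. Their log2 fold changes were 2.59 (SE 0.33) and 1.24 (SE 0.29), with edgeR adjusted p of 0.000558 and 0.00949.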

How the data were processed

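Polyadenylated RNA of 3 EHE tumours and 3 livers was sequenced on libraries made with the DNBSeq protocol, per the labels' protocols. Alignment to mm10 used HISAT2 2.1.0 and the FPKM came from Cufflinks 2.2.1.3, per the submitters' processing notes. The authors deposited a table of raw counts per Ensembl gene, whose counting tool, annotation and strand handling were not given in the sources used here, and 1 file of FPKM values per library. Gene names came from the FPKM files, which held 53 repeated identifiers (for each, the row of highest mean was used). Between 289 and 470 genes per library had an FPKM of 0 at 100 or more counts, and none of the 49 Wnt genes did.

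Samples were grouped by title. Counts were filtered with filterByExpr (17387 genes kept), scaled by TMM and tested with edgeR 4.0.16 in R 4.3.3 (robust quasi-likelihood, no covariates), with Benjamini-Hochberg adjustment over all genes tested and a threshold of 0.05. The SE of a log2 fold change was obtained from it and the square root of F. Alternatives used DESeq2 1.42.0 and limma 3.58.1. Tests were also run on simulated counts in which few genes changed, in random directions. Such counts cannot check the scaling between these tissues. Same-numbered tumours and livers did not deviate together, which cannot exclude that they were paired. Replicates differed by more than sampling noise, with a chi-square per degree of freedom of 105 or more. Members and lists were chosen with earlier results of these data known. Genes named with 6 values were tested members with a group mean of 1 CPM or more, beside Lgr6, and other members are given by counts. Of each other list, up to 4 called genes at that level were named in each direction, by size of change. At most 16.4% of the 50-base stretches of a member's transcripts (Fzd5) occurred in another gene. Gene positions follow GENCODE M21 on GRCm38, and promoters are RefSeq on GRCm38.p6.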

Additional observations from a re-analysis of the deposited data

How the results depend on the processing

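All 18 higher Wnt genes kept their call with RLE size factors, library totals alone, limma-voom, DESeq2, 1 CPM in 3 libraries, no low-count filter, the replicate block and without any single library, 16 of them with limma on filtered FPKM (Fzd3 and Fzd9 were not tested) and 17 on unfiltered FPKM (Fzd9, adjusted p = 0.0698). Of the 9 lower genes, Rnf43, Lgr4, Lgr5, Rspo3 and Wnt5b kept their call in every alternative that tested them, and 7 to 9 lower genes were called without 1 library. With library totals alone 5 were lower, with limma on log2(FPKM + 1) and log2(FPKM + 0.1) 4, and without an FPKM filter 5. Signs turned for Fzd5 (0.16 with totals, 0.11 with unfiltered FPKM), Lrp6 (1.07, then 0.92, 1.03 and 0.92 with FPKM at 1, at 0.1 and unfiltered), Fzd7 (-0.00116 to 0.44 without 1 library, -0.041 without libraries 2 of both groups), Wnt2 (-0.28 to 1.21 and -0.28) and Axin2 (-0.022 to 0.49 without 1 library), none of them called in those fits except Lrp6. The median of the Wnt genes, 1.89, was 3.14 with totals, 1.26 with no filter, 2.07 with 1 CPM in 3 libraries, 2.40 with limma-voom, 1.57, 3.21 and 0.92 with FPKM at 1, at 0.1 and unfiltered, 2.50 without libraries 2, and 1.501 to 2.44 without 1 library. Over all genes, totals gave 10688 higher and 2172 lower (median 1.38), and FPKM at 1, at 0.1 and unfiltered gave 8613, 8608 and 9370 higher and 2031, 2019 and 2152 lower, so 80.9% to 83.1% of calls were higher in place of 50.8%. Other pathway genes came to 51 higher with totals and 44 with unfiltered FPKM, and to 2 lower with totals and each FPKM fit and 4 with no filter. Liver beta-catenin targets came to 4 higher with totals and each FPKM fit. Deviations of same-numbered tumours and livers had correlations of 0.02, 0.04 and -0.02 for numbers 1 to 3. Tumour 1 correlated best with liver 3. With 3 libraries a group in unlike tissues, such correlations cannot decide whether the samples were paired. With the replicate block 18 Wnt genes were higher and 9 lower, and their median was 2.27. Of 566 values of single Wnt genes under the alternatives 518 kept direction and call. Axin2, Fzd7 and Lrp5 gained a call as higher in each FPKM fit, Wnt2 with FPKM at 0.1 and Wnt2b with unfiltered FPKM. The cause of the differences between fits was not tested. Wnt6, Wnt7a, Wnt11, Sfrp4, Dkk2, Fzd9 and Fzd10 had 6 or fewer counts in all livers together. With 3 libraries a group, the sizes of these rises are limited by depth. These genes passed the filter through the tumours, so a fall could hardly have been called.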

Other observations

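Genes that act with Wnt7 and Norrin ligands at the endothelial surface, or in Wnt secretion, are given singly, and were chosen after their values were seen. Adgra2 (Gpr124), which with Reck lets endothelial cells respond to Wnt7 ligands, had 306, 152 and 234 CPM in tumours, against 6.65, 8.50 and 7.51 CPM in livers, with a log2 fold change at 4.93 (SE 0.33, edgeR adjusted p = 3.6e-05). Reck had 21.7, 14.5 and 19.5 CPM in tumours, against 6.53, 7.02 and 6.65 CPM in livers (log2 fold change 1.46, SE 0.22, edgeR adjusted p = 0.00117). Tspan12, which strengthens the Norrin signal at Fzd4, had 113, 46.1 and 128 CPM in tumours, against 249.9, 231 and 228 CPM in livers (log2 fold change -1.31, SE 0.37, edgeR adjusted p = 0.0203). The FPKM of Tspan12 overlapped between the groups, with 61.8, 25.4 and 75.6 in tumours, against 61.7, 55.6 and 55.8 in livers. Wls, which carries every Wnt to the cell surface, had 298, 188 and 364 CPM in tumours, against 8.84, 9.49 and 10.2 CPM in livers (log2 fold change 4.90, SE 0.31, edgeR adjusted p = 3.06e-05), while Porcn, which attaches the lipid, had 5.37, 5.28 and 4.25 CPM in tumours, against 6.33, 6.55 and 6.36 CPM in livers and did not pass (edgeR adjusted p = 0.247). Apcdd1, a target and inhibitor known from brain endothelium, had 7.47, 6.99 and 5.24 CPM in tumours, against 0.162, 0.390 and 0 CPM in livers (log2 fold change 5.15, SE 0.87, edgeR adjusted p = 0.00217).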
